A study of Mus musculus with 12 samples.

Results

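A set of 10 genes that encode alternative subunits of the BAF complex, the mammalian SWI/SNF chromatin remodeller, was followed across 12 mouse arrays. They form 5 pairs of related genes: Smarca4 and Smarca2, Smarcc1 and Smarcc2, Smarcd1 and Smarcd3, Actl6a and Actl6b, and Phf10 and Dpf1. They are 10 of the 18193 genes that had an Affymetrix probe set naming only that gene. They were chosen by name with earlier results of these data known, which the adjusted p-values below do not account for. Between them they had 20 such probe sets. Each gene was read from the probe set with the highest mean signal over the 12 arrays. A gene was tested where its probe set reached a signal of 20 on at least 1 array, which held for 9 of the 10 genes and for 13650 genes in all.

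The arrays measured RNA from cultures related to directly induced neural stem cells, and they fall into 7 groups. The pluripotent side was 2 arrays, 1 of iPS (induced pluripotent stem) cells of line 38C2 and 1 of ES (embryonic stem) cells of line EB3. Neurospheres are cultured balls of cells, rich in neural progenitors, that grow without attaching. Each of these lines gave 1 array of primary neurospheres and 1 array of secondary neurospheres, and 1 further array held neurospheres of the ganglionic eminence (GE), a ventral forebrain germinal zone, at embryonic day 14. These 5 arrays are called neural below. Adult skin fibroblasts were on 1 array. Fibroblast-derived neurospheres were on 4 arrays. The adult fibroblast-derived pair was grown with EGF and cAMP (replicate 1) or with LIF (replicate 2), and the embryonic fibroblast-derived pair with LIF (replicate 3) or with LIF and cAMP (replicate 4). Apart from the iPS and ES lines, all material came from C57BL/6 mice. The labels name the culture medium of the neurospheres as MHM and name no transgene, genotype or conversion method. The EB3 and 38C2 arrays are each 1 line, so a trait of a line and a trait of its cell type cannot be told apart. The labels do not call any arrays repeat cultures, and arrays of 1 group differ in line or medium. The spread behind a p-value is thus that among the arrays at hand. In it, line, medium and technical variation cannot be told apart.

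BAF complexes use the energy of ATP to move or evict nucleosomes, and each complex is assembled from families of interchangeable subunits. In the mouse, ES cells are known for a form built around Smarca4 and Smarcc1 with little Smarca2 or Smarcc2. Neural progenitors are known for a form with Actl6a and Phf10, and neurons leaving the cell cycle are known to replace these with Actl6b and Dpf1 and to exchange Ss18 for Ss18l1.

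The promoters of the 3 members that were higher in the neural arrays than in the pluripotent cells (Smarca2, Smarcc2 and Smarcd3) are shown because these genes moved in the same direction in that comparison. All 10 members had an entry in the RefSeq promoter table (GRCm38.p6). The 250 bases before the start are printed 5′ to 3′ along the gene. Capitals mark CCGCCC, or GGGCGG on the other strand, the core of a GC box. The windows are chr19:26604910-26605159 on the plus strand for Smarca2, chr10:128458986-128459235 on the plus strand for Smarcc2 and chr5:24602003-24602252 on the minus strand for Smarcd3.
Smarca2: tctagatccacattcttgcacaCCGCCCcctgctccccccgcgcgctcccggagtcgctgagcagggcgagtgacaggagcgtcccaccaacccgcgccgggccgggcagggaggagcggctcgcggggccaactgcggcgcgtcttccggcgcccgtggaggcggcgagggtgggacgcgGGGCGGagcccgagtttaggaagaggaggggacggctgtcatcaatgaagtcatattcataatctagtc
Smarcc2: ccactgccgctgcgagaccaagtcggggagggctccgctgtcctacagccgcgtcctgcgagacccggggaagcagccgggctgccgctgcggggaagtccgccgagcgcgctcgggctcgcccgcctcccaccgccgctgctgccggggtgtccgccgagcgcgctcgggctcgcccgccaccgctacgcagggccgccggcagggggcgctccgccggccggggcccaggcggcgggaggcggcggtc
Smarcd3: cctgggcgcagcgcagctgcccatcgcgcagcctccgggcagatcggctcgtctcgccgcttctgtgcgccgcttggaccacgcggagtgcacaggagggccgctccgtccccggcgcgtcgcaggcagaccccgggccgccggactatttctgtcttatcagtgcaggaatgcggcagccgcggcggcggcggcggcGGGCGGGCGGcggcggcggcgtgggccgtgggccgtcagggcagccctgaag
The Smarca2 window holds 28 CpG dinucleotides and 2 GC-box cores. The Smarcc2 window holds 40 CpG and 0 GC-box cores. The Smarcd3 window holds 38 CpG and 2 GC-box cores, which overlap. Over all 32851 promoters in the table the median was 6 CpG, and 32.7% held a GC-box core on either strand. All 10 members lay above that median, from 15 CpG (Actl6b) to 51 (Phf10), so a CpG-rich promoter did not set these 3 apart. The E-box CANNTG, which reads the same on both strands, was found once each in the windows of Smarca2, Smarcd3, Actl6b and Phf10 and in 66.2% of all promoters. ACAAAG (in 16.5% of promoters), ATGCAAAT (in 1.6%) and CACGTG (in 6.02%; it is also a CANNTG), searched on both strands, were in none of the 10 windows. A match describes these letters and not binding.

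The labels were first set against marker genes. Both pluripotent arrays had all 8 pluripotency markers at 20 or more, with Pou5f1 at 2817.5 and 2462.2, and the fibroblast array had 0 of 8 and all 8 fibroblast markers, with a summed signal of 33810.2. The fibroblast-derived replicates 1 to 4 had 4, 7, 7 and 7 of these 8 fibroblast markers, with sums of 2519.3 to 4737.4. On the neural and pluripotent arrays 3 to 7 were at 20 or more, with sums from 229.9 to 3345.3. Fabp7, a radial glial marker, lay between 5037.1 and 7196.6 on the 5 neural arrays and between 48.1 and 517.5 on the fibroblast-derived arrays. It is among 8 neural stem cell markers, all at 20 or more on the neural arrays. Fibroblast-derived replicates 1 to 4 had 7, 7, 6 and 6 of them at 20 or more. Against the neural arrays Nes was not called (-0.83). Every other one was called lower, from -1.92 (Sox2, with overlapping arrays) to -5.59 (Hes5). The fibroblast-derived arrays also had 7 or 8 of the 8 pluripotency markers at 20 or more, with Pou5f1 between 1787.0 and 2217.8. Their summed pluripotency signal was 2793.9, 7738.4, 12056.7 and 12550.6 in replicates 1 to 4, against 20762.2 and 22045.8 in the pluripotent cells. Of the 8, Pou5f1 differed least from the pluripotent cells (-0.39 in log2) and Zfp42 most (-5.05). The ES-derived primary neurospheres had 8 of 8, with a summed signal of 9057.2, against 2 of 8 and 251.0 in the iPS-derived ones. The summed signal of 14 neuronal markers ran from 2583.1 to 22754.5 on the neural arrays and from 1027.6 to 2590.1 on the fibroblast-derived arrays. It was 2045.7 in the iPS and 3202 in the ES cells, so the ES cells lay above the GE neurospheres (2583.1). The list was mixed: Stmn2 was called lower in the neural arrays than in the pluripotent cells (-2.98). It was also called higher in the fibroblast-derived than in the neural arrays (1.72). The summed signal of 7 cell-cycle genes was 14093.5 and 12806.0 in the pluripotent cells, 808.1 in the GE neurospheres, 1540.6 in the fibroblasts, 3967.1 to 9145.4 in the other neural arrays and 5498.7 to 7810.6 in the fibroblast-derived arrays. The GE neurospheres had the highest glial sums of the 12 arrays, 14243.6 for 6 oligodendrocyte and 13188 for 6 astrocyte markers, where the iPS and ES cells had 200.9 and 192.6 for the first and 1128.3 and 2207 for the latter. The part that pluripotent cells, neurons, glia, fibroblasts or cycling cells play in the member values below was not tested.

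The catalytic ATPase changed through Smarca2. Smarca2 (Brm) and Smarca4 (Brg1) are the alternative motor subunits. Smarca2 had a signal of 8.0 in the iPS cells and 0.4 in the ES cells, both under the floor of 20. It read 84.1 and 140.2 in the primary neurospheres of iPS and ES origin, 245.0 and 408.9 in the secondary neurospheres, and 291.1 in the GE neurospheres. In the adult fibroblasts it was 245.5. The fibroblast-derived arrays read 368.1 and 504.6 (adult) and 608.9 and 381.9 (embryonic). No array outside the pluripotent pair came near it, and the primary neurospheres were the lowest of the rest. With the pluripotent arrays set at the floor of 20, a lower bound was taken from the geometric mean of the arrays of each side. By that mean Smarca2 was at least 10.1-fold higher over the 5 neural arrays and at least 22.8-fold higher over the 4 fibroblast-derived arrays. It was at least 12.3-fold higher in the fibroblasts. These are not bounds for every array, since the iPS-derived primary neurospheres alone gave at least 4.21-fold. In bulk RNA, fewer expressing cells and less RNA per cell cannot be told apart. Smarca4, by contrast, gave 915.1 and 929.7 in the pluripotent cells, 1374.8 and 1231.7 in the primary, 1066.4 and 908.0 in the secondary and 579.9 in the GE neurospheres. It was 544.0 in the fibroblasts, 1081.1 and 862.7 in the adult-derived and 682.6 and 564.6 in the embryonic-derived arrays. The pluripotent values lay inside the neural range.

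The scaffold subunits Smarcc1 (BAF155) and Smarcc2 (BAF170), which bind each other and hold the core together, moved in opposite directions. Smarcc1 read 1188.9 in the iPS and 1414.0 in the ES cells, 1202.1 and 1053.3 in the primary neurospheres, 620.4 and 662.1 in the secondary ones, and 464.9 in the GE neurospheres. It was 431.2 in the fibroblasts, 1141.0 and 932.1 in the adult-derived and 672.9 and 619.9 in the embryonic-derived arrays. The iPS-derived primary neurospheres thus overlapped the pluripotent range, and the other 4 neural arrays lay below it. Smarcc2 read only 30.4 and 34.2 in the pluripotent cells. The neural arrays gave 298.0 and 175.3 (primary), 241.1 and 203.0 (secondary) and 198.4 (GE). The fibroblasts gave 109.0, and the fibroblast-derived arrays gave 78.9 and 78.5 (adult) and 62.0 and 79.5 (embryonic). These values did not overlap between groups: pluripotent lowest, then fibroblast-derived, then fibroblasts, then neural. The fibroblast value is 1 array, and the difference of the fibroblast-derived arrays from it was not called (-0.52). No share of all genes is given for such an order, which is a description only.

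Smarcd1 and Smarcd3 (BAF60a and BAF60c) are adaptor subunits that contact transcription factors, and Smarcd3 is best known from heart and muscle. Smarcd1 was dim throughout. It read 65.3 and 80.0 in the pluripotent cells, 99.0 and 115.6 in the primary, 51.3 and 48.6 in the secondary and 51.8 in the GE neurospheres. It was 21.9 in the fibroblasts and 60.3, 54.4, 40.9 and 39.6 in fibroblast-derived replicates 1 to 4. The primary neurospheres were highest and the fibroblasts lowest. Smarcd3 read 77.1 and 49.8 in the pluripotent cells, 117.3 and 94.6 in the primary, 223.4 and 208.7 in the secondary and 203.4 in the GE neurospheres. It was 82.0 in the fibroblasts and 27.2, 24.4, 29.5 and 29.9 in fibroblast-derived replicates 1 to 4. All 4 fibroblast-derived arrays lay below every other array, and all 5 neural arrays above every other. No share of all genes is given for this order either.

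The actin-related subunits Actl6a (BAF53a) and Actl6b (BAF53b, the neuronal form) differed in whether they could be measured at all. Actl6a read 759.0 in the iPS and 1896.9 in the ES cells, a wide spread within the pluripotent pair. It gave 607.1 and 1008.7 in the primary, 443.9 and 349.2 in the secondary and 267.1 in the GE neurospheres, and 235.9 in the fibroblasts. The fibroblast-derived replicates gave 710.3, 813.3, 864.4 and 764.4. ES-derived primary neurospheres lay inside the pluripotent range. Actl6b stayed under 20 on every array, with its highest value, 18.6, in the ES-derived primary neurospheres. Its values were 1.7 and 0.8 in the pluripotent cells, 11.4 and 18.6 in the primary, 10.3 and 3.8 in the secondary and 1.3 in the GE neurospheres, 11.9 in the fibroblasts and 1.3 to 4.8 in the fibroblast-derived arrays. Values under the floor have no order, so Actl6b was not tested and no ratio to Actl6a is given.

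Phf10 (BAF45a, with PHD fingers that read histone tails, a progenitor form) and Dpf1 (BAF45b, the neuronal form) were both measurable. Phf10 read 735.1 and 716.5 in the pluripotent cells, 450.4 and 668.6 in the primary, 384.8 and 459.6 in the secondary and 436.0 in the GE neurospheres. It gave 557.9 in the fibroblasts and 577.8, 692.1, 545.7 and 482.7 in fibroblast-derived replicates 1 to 4. The pluripotent pair was above all other arrays on this probe set. The other Phf10 probe set ran the opposite way, at 142.2 and 83.9 in the pluripotent cells against 241.0, 210.4, 223.9, 202.1 and 311.8 in the neural arrays, so a direction for Phf10 depends on the probe set. Dpf1 read 41.6 and 52.3 in the pluripotent cells, 149.9 and 73.8 in the primary, 80.2 and 62.0 in the secondary and 86.4 in the GE neurospheres. It was 10.4 in the fibroblasts and 105.2, 49.1, 19.4 and 22.1 in fibroblast-derived replicates 1 to 4. Every neural array lay above the pluripotent pair, the fibroblasts and embryonic-derived replicate 3 were under the floor of 20, and the fibroblast-derived arrays overlapped both the pluripotent and the neural ranges.

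**Figure D1:**
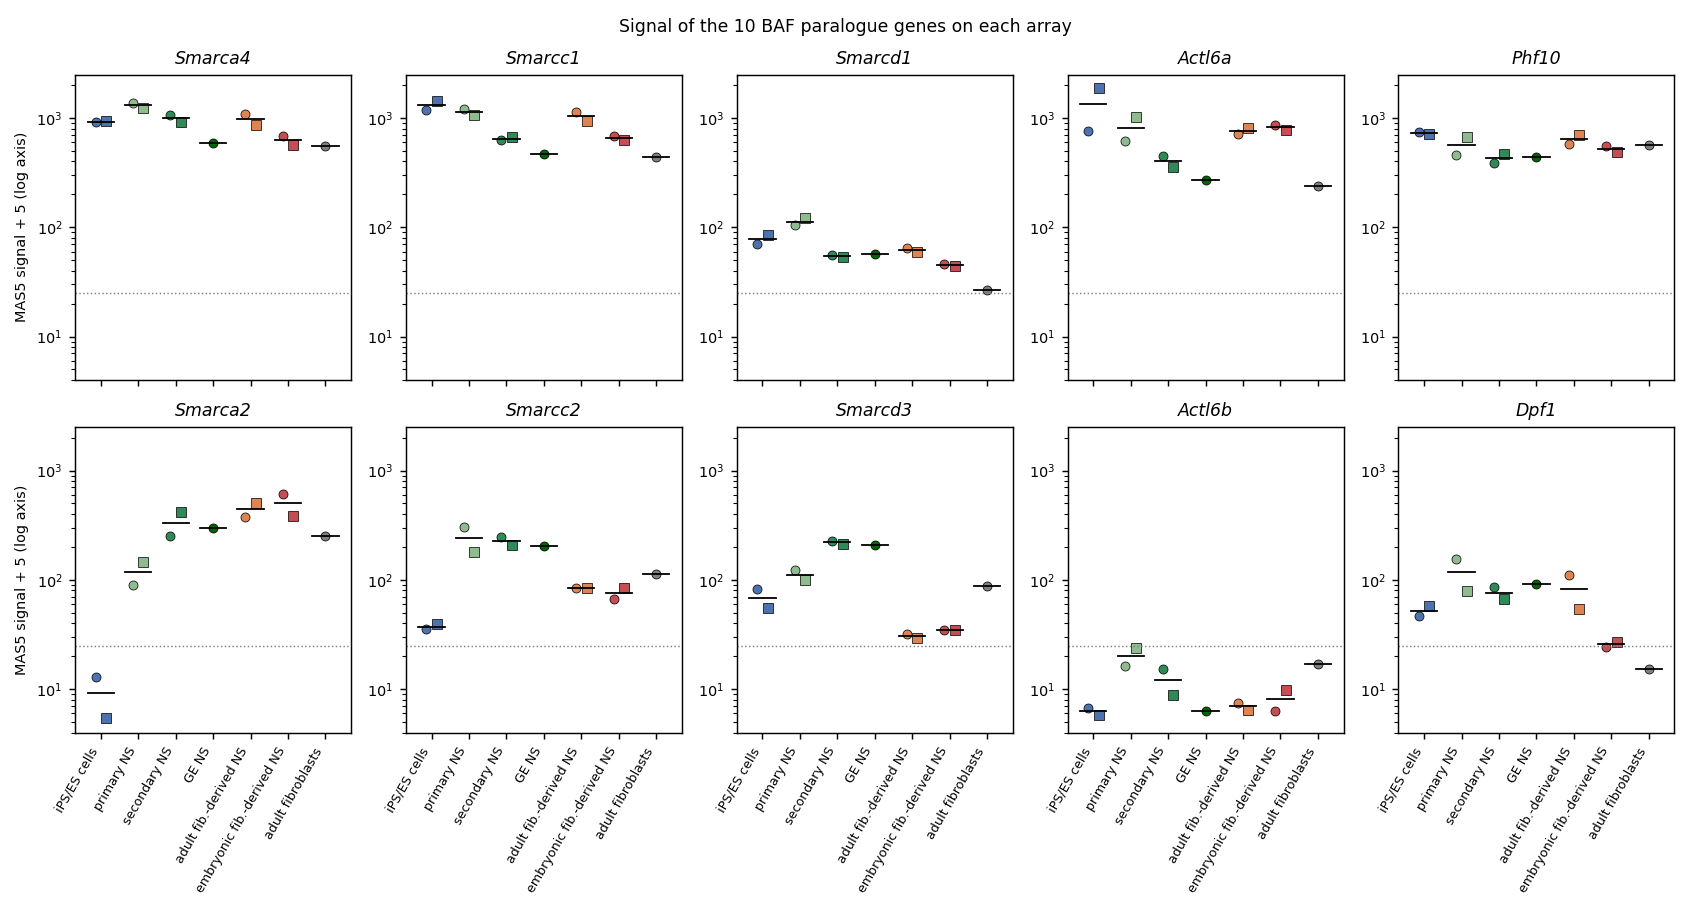
Signal of each of the 10 genes on the 12 arrays (deposited MAS5 signal + 5, log axis), with the first named gene of each pair above its partner. Points are arrays (NS, neurospheres). Where a group has 2 arrays, circles are iPS origin or the lower replicate number and squares are ES origin or the higher one. Bars are the arithmetic mean of signal + 5, and the dotted line is the floor of 20. Smarca2 is under the line in both pluripotent arrays, at 8.0 and 0.4, and Actl6b is under it on all 12.

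Set against the pluripotent cells, the neural arrays were higher in Smarca2, Smarcc2 and Smarcd3 and lower in Smarcc1, Actl6a and Phf10. Thus 6 of the 9 tested members passed an adjusted p of 0.05 in limma, 3 in each direction, where 49.9% of all genes tested passed (28.8% higher and 21.1% lower). A share of 6 in 9 from so broad a shift is not a result about the members as a group, and their median difference was -0.03 against 0.14 over all genes. Each difference is one of log2(signal + 5), a scale that shrinks the changes of dim genes. Smarca2 rose by 4.72 ± 0.41 (SE, adjusted p = 8.43e-05), a fitted value that depends on the added 5 since its pluripotent level is under the floor. Smarcc2 rose by 2.57 ± 0.26 (adjusted p = 0.000159), or 5.93-fold. Smarcd3 rose by 1.36 ± 0.24 (adjusted p = 0.00200), or 2.56-fold. Smarcc1 fell by 0.89 ± 0.16 (adjusted p = 0.00188), or 1.86-fold. These 4 calls held under all 23 alternatives, among them leaving out either array of the primary neurospheres. The differences were -0.03 ± 0.16 for Smarca4 (adjusted p = 0.911), -0.13 ± 0.22 for Smarcd1 (adjusted p = 0.643) and 0.82 ± 0.37 for Dpf1 (adjusted p = 0.0961), none of which passed. Arrays of the sides did not overlap for Smarca2, Smarcc2, Smarcd3, Dpf1 and Phf10, where 47.9% of all genes did not overlap.

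Of the other calls, 2 rested on single arrays or probe sets. Actl6a was lower by -1.45 ± 0.35 (adjusted p = 0.00826). Without the ES array its difference was -0.79 (adjusted p = 0.0676), the highest of a range that began at 0.0015 over the alternatives. Phf10 was lower by -0.64 ± 0.20 (adjusted p = 0.0248). It did not pass with quantile normalization (adjusted p = 0.0603), without the iPS array (-0.62, adjusted p = 0.0828) or without the ES array (-0.65, adjusted p = 0.0819), and on its second probe set it was higher by 1.14 (adjusted p = 0.0165). Dpf1 passed once, without the ES-derived primary neurospheres (0.98, adjusted p = 0.0414, the lowest over all alternatives, where the highest was 0.411). That array carried all 8 pluripotency markers, and without it more members were called, as were more of all genes. The second probe sets of Smarca2 (2.93, adjusted p = 0.000384), Smarcc1 (-0.86, adjusted p = 0.00458) and Actl6a (-1.39, adjusted p = 0.00618) gave the same direction. Smarcc2 and Smarcd3 had 1 probe set each.

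The 2 lines could be followed separately from pluripotent cells to primary and then secondary neurospheres. With the pluripotent arrays at the floor, Smarca2 was at least 4.21-fold higher in the iPS-derived and at least 7.01-fold higher in the ES-derived primary neurospheres. No step size is given for it there, since both pluripotent values were under 20. From primary to secondary it was higher by 1.49 and 1.51. Smarcc2 was higher by 3.10 in the iPS and 2.20 in the ES line at the primary stage, and from there differed by -0.30 and 0.21. Smarcd3 was higher by 0.58 and 0.86 at the primary stage and by a further 0.90 and 1.1 at the secondary stage. In these values Smarcc2 took 1 step, before the primary stage, while Smarca2 and Smarcd3 were higher again at the secondary stage in both lines. Glial markers moved with that second step: the summed signal of 6 oligodendrocyte markers was 270.7 and 192.8 in the primary and 2961.6 and 1866.2 in the secondary neurospheres, and that of 6 astrocyte markers 974 and 2900.9 against 4408.2 and 6447.7. Of these, 5 oligodendrocyte and 3 astrocyte markers were called higher in the secondary neurospheres. Other lists moved at that step too, in both lines. The neuronal sums were 22754.5 and 8724.3 in the primary against 7777.4 and 3862 in the secondary neurospheres. Pluripotency sums were 251 and 9057.2 against 49.6 and 706.1, and fibroblast sums 229.9 and 756.2 against 560.9 and 2967.6. The part of any of these lists in the steps was not tested. Smarcc1 showed -0.95 and -0.67 from primary to secondary, after 0.02 and -0.42 from pluripotent to primary. None of the 9 members passed for secondary against primary, where 2.78% of all genes did. At an unadjusted p under 0.05 there were 5. No share of all genes is given at that threshold, so the 5 are not read as a result about the members. The fit without an intensity trend also gave 0 at the adjusted threshold. Nearest was Smarcc1 (-0.81 ± 0.18, adjusted p = 0.0562), whose adjusted p ran from 0.0314 to 0.254 over the alternatives. With the line as a replicate block it was 0.0487. Leaving out the iPS array (0.0455) or the ES array (0.0464) also took it past the threshold. Smarcd1 passed with a common median (-1.36, adjusted p = 0.0379).

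**Figure D2:**
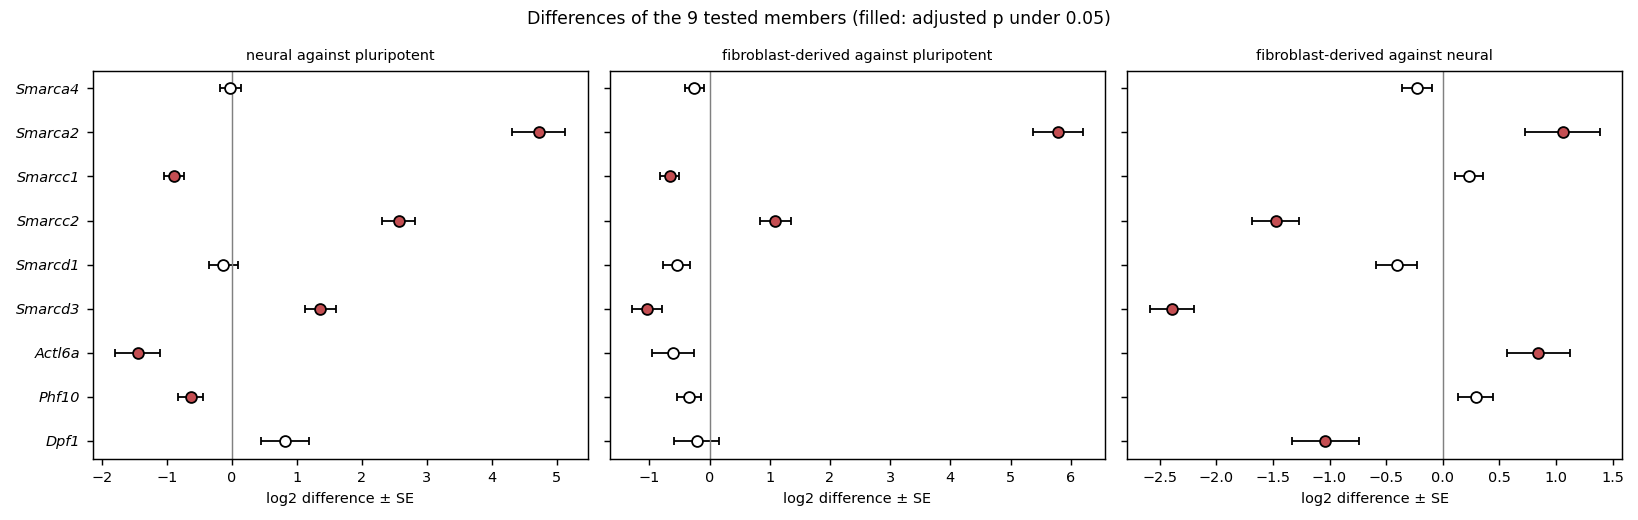
Log2 differences of the 9 tested members in 3 comparisons, each axis on its own scale, as group mean differences of log2(signal + 5). Bars are 1 SE from limma over 12 arrays, and filled points have an adjusted p under 0.05. Smarcd3 lies at 1.36 for neural against pluripotent and at -2.40 for fibroblast-derived against neural.

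The fibroblast-derived neurospheres had the lowest Smarcd3 of all groups, beside the highest single value of Smarca2 (608.9). Against the neural arrays, Smarcd3 fell by 2.40 ± 0.19 (adjusted p = 5.08e-05), or 5.26-fold, and Smarcc2 fell by 1.48 ± 0.21 (adjusted p = 0.000760), or 2.78-fold. Both were below every neural array, which held for 13.5% of all genes, and both calls held under all 23 alternatives. In all, 5 of 9 members passed, 2 higher and 3 lower, where 42.7% of all genes passed (23% higher and 19.7% lower). The other 3 calls were Smarca2 (1.06 ± 0.33, adjusted p = 0.0305), Actl6a (0.84 ± 0.28, adjusted p = 0.0387) and Dpf1 (-1.04 ± 0.30, adjusted p = 0.0229), and in each the arrays overlapped. Smarca2 did not pass without any 1 of 5 arrays: the iPS-derived primary (0.0638), the iPS-derived secondary (0.0684), adult-derived replicate 1 (0.0510) or 2 (0.0996), or embryonic-derived replicate 3 (0.113). With the primary neurospheres taken out of the neural side its difference was 0.58 (adjusted p = 0.253), and with 1 added in place of 5 its adjusted p was 0.128. Actl6a did not pass without any 1 of 8 arrays (adjusted p 0.0537 to 0.203), which were the GE, the iPS-derived primary, both secondary and all 4 fibroblast-derived arrays, nor on the second probe set (0.54, adjusted p = 0.111), with a common median (0.0628) or in the fit without an intensity trend (0.0551). Dpf1 did not pass without the iPS-derived secondary (0.0530), adult-derived replicate 2 (0.0799), embryonic-derived replicate 3 (0.0749) or replicate 4 (0.0606), or the primary pair (0.0661). Smarca4, Smarcc1, Smarcd1 and Phf10 did not pass, at -0.22, 0.23, -0.41 and 0.29. Without the GE array Smarca4 (-0.54, adjusted p = 0.0129) and Smarcd1 (-0.56, adjusted p = 0.0387) did, and without the primary pair Smarcc1 did (0.58, adjusted p = 0.0134). Fewer members were called without the iPS-derived primary or secondary array, or without any 1 of the 4 fibroblast-derived arrays. In each of these settings fewer of all genes were called as well.

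Against the pluripotent cells, which also serve in the comparison of the neural arrays, 4 of 9 members passed in the fibroblast-derived arrays, 2 in each direction, where 30.2% of all genes passed (20.4% higher and 9.77% lower). Smarca2 rose by 5.78 ± 0.42 (adjusted p = 0.000148), under all 22 alternatives that could be run. Smarcc2 was higher by 1.09 ± 0.26 (adjusted p = 0.0153), beside 2.57 in the neural arrays. It did not pass without the iPS array (0.0550), the ES array (0.0536) or embryonic-derived replicate 4 (0.0538), and stood at 0.68 with quantile normalization (adjusted p = 0.0872) and 0.73 with a common median (0.0910). Smarcd3 was lower by -1.04 ± 0.24 (adjusted p = 0.0147), beside a rise of 1.36 in the neural arrays, and did not pass without the iPS array (-0.75, adjusted p = 0.0687). Smarcc1 was lower by -0.66 ± 0.16 (adjusted p = 0.0156) and did not pass without the ES array (0.0906) or embryonic-derived replicate 4 (0.0536), with quantile normalization (0.0530) or on the second probe set (0.0813). Leaving out the ES array or embryonic-derived replicate 4 left fewer of the 4 calls, and fewer calls over all genes. Actl6a was at -0.61 ± 0.35 (adjusted p = 0.222), with the widest pluripotent spread; without the iPS array it was -1.27 (adjusted p = 0.0185).

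Against the single array of adult fibroblasts, the source cell type of the adult pair only, 4 of 9 members passed, 3 higher and 1 lower, where 23.2% of all genes did (15% higher and 8.21% lower). Smarcd3 fell by 1.41 ± 0.32 (adjusted p = 0.0146), or 2.66-fold, under all 21 alternatives that could be run. Smarcc1 was higher by 0.91 ± 0.21 (adjusted p = 0.0150), Actl6a by 1.72 ± 0.46 (adjusted p = 0.0277) and Smarcd1 by 0.98 ± 0.29 (adjusted p = 0.0404). When the arrays were given a common median, only the Smarcd3 call was left. Actl6a did not pass without any 1 of the 4 fibroblast-derived arrays (adjusted p 0.0508 to 0.0674), and Smarcd1 without any of these or either secondary array (0.0626 to 0.101), with quantile normalization (0.177), with 20 added (0.0559) or with no filter (0.0657). Leaving out adult-derived replicate 1 or either embryonic-derived array left fewer of the 4 calls, and fewer calls over all genes. The higher members stood beside cell-cycle genes, of which 6 of 7 were called higher than in the fibroblasts, and their part in these differences was not tested. Smarca2 was not called (0.88 ± 0.54, adjusted p = 0.268), nor was Dpf1 (adjusted p = 0.0522, and 0.0447 with the line as a replicate block). Dpf1 was under the floor of 20 in the fibroblasts, so no size is given and neither p is read. Between the adult-derived and embryonic-derived pairs none of the 9 members passed in limma, where 0.469% of all genes did. At an unadjusted p under 0.05 there were 3 (Smarca4, Smarcc1 and Dpf1, at 0.63, 0.67 and 1.59). No share of all genes is given at that threshold either, so these 3 are not read as a result about the members. The fit without an intensity trend also gave 0 at the adjusted threshold.

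The fibroblast array stood on the same side of the pluripotent cells as the neural arrays for the ATPase and the scaffold. Against the pluripotent cells, 7 of 9 members passed, 2 higher and 5 lower, where 39.1% of all genes passed (19.5% in each direction). Smarca2 rose by 4.90 ± 0.59 (adjusted p = 0.000688) and Smarcc2 rose by 1.61 ± 0.37 (adjusted p = 0.00898). Smarcc1 fell by 1.58 ± 0.22 (adjusted p = 0.00125), Smarcd1 fell by 1.52 ± 0.32 (adjusted p = 0.00611) and Actl6a fell by 2.32 ± 0.50 (adjusted p = 0.00696). These 5 held under all alternatives run, whereas Smarca4 (-0.76, adjusted p = 0.0315) did not pass without the iPS (0.0525) or the ES array (0.0662), with quantile normalization (0.0557), a common median (0.0809) or no intensity trend (0.0715), or on the second probe set (0.119). Dpf1, under the floor in the fibroblasts, was at least 2.33-fold higher in the geometric mean of the pluripotent cells. It is counted in the 7, but its adjusted p in limma (0.0303) rests on that under-floor value and is not read. It did not pass without the ES array or without embryonic-derived replicate 3 or 4. Nor did it pass with 20 added (0.0730), or on the mean (0.0723) or the second (0.252) of its probe sets. The size of the Smarca2 rise depends on the added 5 here too, since both pluripotent values were under the floor. The fit takes the lone fibroblast array, and likewise the lone GE array, to vary like the groups with 2 arrays.

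Paralogue ratios were formed on each array as the log2(signal + 5) of the first gene minus that of the second. Probe sets differ in affinity, so only the difference of a ratio between groups is read. The ratios carry no test, because the members were chosen with earlier results of these data known. Smarca4 over Smarca2 averaged 6.79 ± 0.91 (SD, n = 2) in the pluripotent cells, 3.52 ± 0.61 in the primary (n = 2), 1.62 ± 0.68 in the secondary (n = 2) and 0.98 in the GE neurospheres. It was 1.13 in the fibroblasts, 1.15 ± 0.55 in the adult-derived and 0.36 ± 0.28 in the embryonic-derived arrays (n = 2 each). The ATPase ratio thus separated the pluripotent cells from every other array, and the primary neurospheres lay between. The means of the secondary, GE, fibroblast and adult-derived groups did not differ beyond 0.64, the SD pooled over all 7 groups. Their single arrays ran more widely, from 0.77 (adult-derived replicate 2) to 2.10 (iPS-derived secondary). The neural arrays were lower than the pluripotent ones by 4.75 in this ratio, although Smarca2 under the floor makes the size depend on the added 5 (3.34 with 20 added, 5.96 with 1).

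Smarcc1 over Smarcc2 averaged 5.13 ± 0.07 in the pluripotent cells, 2.27 ± 0.40 in the primary, 1.51 ± 0.24 in the secondary and 1.21 in the GE neurospheres, with a pooled SD of 0.27. It was 1.94 in the fibroblasts, 3.63 ± 0.20 in the adult-derived and 3.11 ± 0.32 in the embryonic-derived arrays. In the scaffold ratio the fibroblast-derived arrays lay below both pluripotent arrays, by 1.76, and above all neural arrays, by 1.71, and above the fibroblasts, by 1.44. No array of another group fell into the range of 2.89 to 3.77 that they spanned. Smarcd1 over Smarcd3 averaged 0.20 ± 0.61 in the pluripotent cells, 0.02 ± 0.36 in the primary, -2.01 ± 0.02 in the secondary and -1.88 in the GE neurospheres, with a pooled SD of 0.32. It was -1.69 in the fibroblasts, 1.02 ± 0.0038 in the adult-derived and 0.38 ± 0.04 in the embryonic-derived arrays. Here the primary neurospheres lay with the pluripotent cells, the secondary and GE neurospheres lay together with the fibroblasts, and the fibroblast-derived arrays lay above all neural arrays, by 1.99 on average.

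Phf10 over Dpf1 averaged 3.82 ± 0.24 in the pluripotent cells, 2.33 ± 1.09 in the primary, 2.49 ± 0.42 in the secondary and 2.27 in the GE neurospheres, with a pooled SD of 0.68. It was 5.19 in the fibroblasts, where Dpf1 under the floor makes the value depend on the added 5, 3.05 ± 0.91 in the adult-derived and 4.33 ± 0.23 in the embryonic-derived arrays. The neural arrays lay below both pluripotent arrays, by 1.46. With the second probe sets that difference was 0.27, so no direction is given for this pair.

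**Figure D3:**
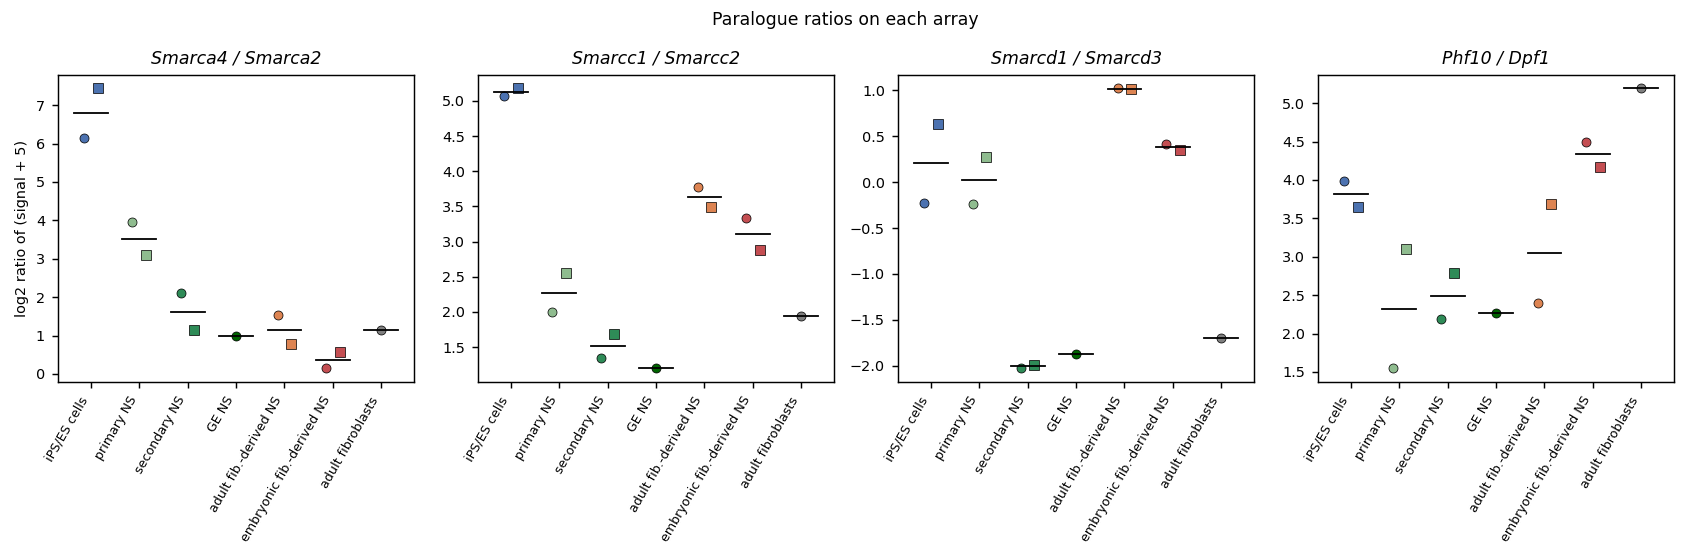
Log2 ratio of (signal + 5) of the first gene over its partner on each of the 12 arrays, for the 4 pairs with both genes measurable; each panel has its own axis. Points are arrays, bars are group means, and circles and squares are as for the signals by array. For Smarcc1 over Smarcc2 the 4 fibroblast-derived arrays sit between 2.89 and 3.77, between the neural and the pluripotent arrays.

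The 20 other BAF subunits, listed by name, were all tested. Dpf3 was at 20 or less on all 12 arrays, so it is left out of the counts. For neural against pluripotent, 6 of the other 19 were called higher and 4 lower and 9 were not called, with a median difference of 0.29 against 0.14 over all genes and the 49.9% of all genes called. Ss18l1 (CREST), the neuronal counterpart of Ss18, read 29.1 and 24.6 in the pluripotent cells and 99.9 to 279.5 in the neural arrays, with no overlap, and rose by 2.17 ± 0.35 (adjusted p = 0.00121). Ss18 itself read 1267.7 and 1182.5 against 577.5 to 997.2 and was lower by -0.81 ± 0.18 (adjusted p = 0.00606), but did not pass on the mean of its probe sets (-0.49, adjusted p = 0.0681). Smarcd2 (BAF60b), the third member of the Smarcd family, read 642.4 and 611.2 against 130.9 to 313.5 and fell by 1.80 ± 0.34 (adjusted p = 0.00262). Thus within the BAF60 family Smarcd2 fell where Smarcd3 rose, and Smarcd1 was not called. Bcl7a, a nucleosome-binding accessory subunit, rose by 1.92 ± 0.26 (adjusted p = 0.000564), and Arid1b, the alternative to Arid1a as the DNA-binding subunit of the canonical complex, rose by 1.37 ± 0.28 (adjusted p = 0.00371). Brd9, a bromodomain subunit of the non-canonical form, was higher by 0.91 (adjusted p = 0.00410; 0.0581 with arrays scaled to the same median). Smarce1, an HMG-box subunit, was at 1.82 (adjusted p = 0.000274) on its brightest probe set and -0.010 (adjusted p = 0.967) on the second. Bcl11a (1.75, adjusted p = 0.0433), a zinc-finger subunit, Arid1a (-0.44, adjusted p = 0.0449) and Bicral (-1.42, adjusted p = 0.0198) did not pass without the ES array, at adjusted p of 0.442, 0.289 and 0.195. Counting each array left out in turn, Arid1a did not pass without any 1 of 10 arrays and Bcl11a without any 1 of 9.

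In the fibroblast-derived arrays 7 of these 19 subunits were called lower and 2 higher than in the neural arrays, with a median of -0.26 against 0.06 over all genes and 42.7% of all genes called. Ss18l1 read 28.1, 24.4, 28 and 33.3 in replicates 1 to 4, close to the 29.1 and 24.6 of the pluripotent cells and below all neural arrays, and fell by 2.11 ± 0.28 (adjusted p = 0.000591). Smarcd2 read 1275.9, 977.8, 913.3 and 902.6, above every other array including the fibroblasts (579.4), and rose by 2.48 ± 0.27 (adjusted p = 0.000222). Bcl7a fell by 1.94 ± 0.21 (adjusted p = 0.000204), Bcl11a fell by 2.59 ± 0.50 (adjusted p = 0.00378) and Brd9 fell by 0.63 ± 0.15 (adjusted p = 0.0103). Opposite signs in the 2 comparisons arise in part because both use the neural arrays, and their overlap is not read. Dpf2 (-0.58, adjusted p = 0.0110), Bcl11b (-2.06, adjusted p = 0.0219), Ss18 (0.58, adjusted p = 0.0126) and Smarce1 (-1.33, adjusted p = 0.000436) lost their calls under 1 or more alternatives. On the second probe set Smarce1 was at 0.19 (adjusted p = 0.297) and Dpf2 at -0.30 (adjusted p = 0.452). Bcl11b did not pass without any 1 of the 4 fibroblast-derived arrays (adjusted p 0.0511 to 0.0714) and Ss18 without embryonic-derived replicate 3 (0.0506).

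**Figure D4:**
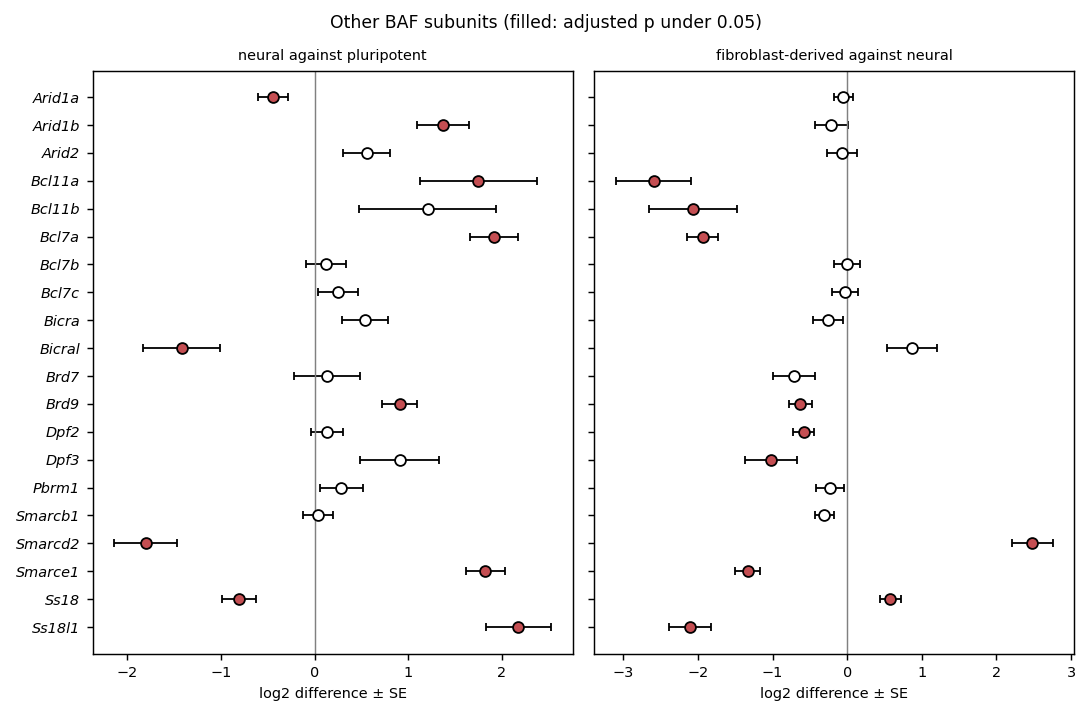
Log2 differences of the 20 other BAF subunits for neural against pluripotent (left) and fibroblast-derived against neural (right), each panel with its own axis. Points are differences of group means of log2(signal + 5), bars are 1 SE from limma over 12 arrays, and filled points have an adjusted p under 0.05. Smarcd2 lies at -1.80 on the left and 2.48 on the right. Dpf3, a filled point on the right, was at 20 or less on all 12 arrays and is not counted.

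A list of 6 regulators linked to neural fate was read as well: Rest, its cofactors Rcor1, Rcor2 and Sin3a, and the splicing factors Ptbp1 and Ptbp2. Rest represses neuronal genes, among them microRNAs that target Actl6a. Rest read 792.8 and 1441.6 in the pluripotent cells, 96.7 and 412.4 in the primary, 175.9 and 238.3 in the secondary and 193.2 in the GE neurospheres. It was 223.4 in the fibroblasts and 320.1, 606.0, 658.8 and 531.4 in the fibroblast-derived arrays. Rest was lower in the neural arrays by -2.39 ± 0.52 (adjusted p = 0.00542), and did not pass without the ES array (-1.96, adjusted p = 0.0585). It was higher by 1.33 ± 0.42 (adjusted p = 0.0325) in the fibroblast-derived than in the neural arrays. That call was lost without the iPS-derived secondary array (0.0687), adult-derived replicate 2 (0.112) embryonic-derived replicate 3 (0.0972) or 4 (0.0711), or the primary pair (0.0546). Ptbp2, the neural form of the pair, rose by 1.30 ± 0.24 (adjusted p = 0.00262) in the neural arrays and fell by 1.71 ± 0.20 (adjusted p = 0.000274) in the fibroblast-derived against the neural arrays. Sin3a fell by 1.28 ± 0.25 (adjusted p = 0.00300) in the neural arrays. Ptbp1 (-1.60, adjusted p = 0.000962) did not pass on its second probe set (-0.23, adjusted p = 0.498), and Rcor2 (-0.95, adjusted p = 0.00976) did not pass without the ES array (-0.63, adjusted p = 0.0789). In all 4 of the 6 were called lower and 1 higher in the neural arrays, where 49.9% of all genes were called. For fibroblast-derived against neural, 3 of the 6 were called higher (Rest, Rcor1 and Ptbp1) and 1 lower (Ptbp2), where 42.7% of all genes were called. Rcor1 was at 0.91 ± 0.19 (adjusted p = 0.00471) and did not pass on the second probe set (0.55, adjusted p = 0.0597). Ptbp1 was at 0.99 ± 0.20 (adjusted p = 0.00405) on its brightest probe set, at -0.13 (adjusted p = 0.636) on the second, and did not pass without the GE array (0.55, adjusted p = 0.0578).

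Over the 12 arrays, the members themselves fell into more than 1 pattern. The highest Pearson r between members on the log2(signal + 5) scale were 0.82 for Smarca4 with Smarcd1, 0.80 for Actl6a with Smarcc1, 0.79 for Smarcc1 with Smarcd1 and 0.76 for Dpf1 with Smarca4. The lowest was -0.76 for Phf10 with Smarcc2, but with the other Phf10 probe set this r was 0.62, so no direction is given for it. Smarcc2 and Smarcd3 correlated at 0.68, whereas Smarca2 correlated at 0.48 with Smarcc2 and -0.06 with Smarcd3. These are descriptions of 12 arrays that share a scaling and fall into a few clusters. Outside the BAF lists, the gene whose pattern was nearest was Cd47 for Smarca2 (r = 0.98), Zc3h4 for Smarca4 (0.96), Larp7 for Smarcc1 (0.97), Samd14 for Smarcc2 (0.98), Nmral1 for Smarcd1 (0.96), Kcna6 for Smarcd3 (0.95), Nup43 for Actl6a (0.98), Scaf11 for Phf10 on its brightest probe set (0.93) and Apoo for Dpf1 (0.96).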

How the data were processed

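Affymetrix arrays with 45101 probe sets read RNA from 12 mouse cultures. The deposited table holds linear signal intensity values. Per the submitters' processing notes, the tools were MAS5, without a version, and Expression Console 1.1. Their 2%-trimmed mean was 100 on every array, so a change in total RNA is hidden, and dim signals are noisy. Arrays have no read depth; between 40.5% and 49.1% of probe sets reached 20 on an array, the 3′ to 5′ ratio of the Actb controls was 1.25 to 1.52 and that of Gapdh 0.709 to 0.897. With at most 2 arrays in a group, their number limits the precision.

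Probe sets were named through the platform annotation held by GEO: 34945 had 1 symbol, 932 several and 9160 none, beside 64 controls. From the intensity, log2(signal + 5) was computed. A probe set had to reach 20 on at least 1 array, and the brightest one naming only a gene stood for it. A single 2-sided fit over the 12 arrays used limma 3.58.1 under R 4.3.3 (eBayes with an intensity trend after lmFit; residual degrees of freedom 5, prior 3.63), with Benjamini-Hochberg adjustment over 13650 genes. Neural and fibroblast-derived are equal means of their group means, so the lone GE array weighs as much as a pair of arrays. The fit was tested on simulated data.

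The same number marks the same line in the pluripotent, primary and secondary groups, which pairs them; deviations from the group means correlated at 0.252 (pluripotent with primary), 0.0578 (pluripotent with secondary) and 0.425 (primary with secondary). Alternatives were quantile normalization, a common median, 1 or 20 added in place of 5, no filter, a floor of 100, the mean of probe sets, the second probe set, no trend, the line as a replicate block, a neural side without primary neurospheres, and each array left out. The other subunits and regulators were put through them only after their values were seen. The members and lists were chosen with earlier results of these data known. Named were all members, the other subunits called in neural against pluripotent or fibroblast-derived against neural, the gene nearest to each member by Pearson r, and markers that stand beside a result. Promoter sequences are RefSeq's (GRCm38.p6). Protein sequences were not used here.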

Additional observations from a re-analysis of the deposited data

Results flagged for a closer look

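Among the 4 fibroblast-derived arrays, embryonic-derived replicate 3 stood apart in Smarcc2, the scaffold subunit: it read 6.07 on the log2(signal + 5) scale against 6.38 to 6.40 on the other arrays. Its gap to the nearest array was 0.949 of the whole range. In 26 groups of values examined, 1 such array was found, where chance gives about 1 in 20.

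The iPS and ES lines took opposite signs in 2 steps. Smarcc1 differed between primary neurospheres and pluripotent cells by 0.016 in the iPS line and -0.423 in the ES line, which are 0.439 apart. Smarcc2 differed between secondary and primary neurospheres by -0.300 in the iPS line and 0.206 in the ES line, a difference of -0.506. Each line had 1 array at each stage, and these differences between lines were not tested.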

How the results depend on the processing

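Of the 26 member calls, 13 held under every alternative that could be run (23 in all, 12 of them leaving out an array; 22 or 21 where a side would have lost its only array or neither side was neural) and 25 kept their sign, the exception being Phf10. For Phf10 the difference between neural and pluripotent arrays was 0.25 on the mean of probe sets and 1.14 on the second probe set, and between fibroblast-derived and neural arrays -0.54 and -1.37. Phf10 over Dpf1 on the second probe sets was 0.27 for neural against pluripotent, -0.20 for fibroblast against pluripotent and -0.48 for fibroblast-derived against neural. Of the 29 calls of other subunits and regulators, 12 held under all of theirs, which were run on them only after seeing the data. On the second probe set Smarce1 was at -0.010 (neural against pluripotent) and 0.19 (fibroblast-derived against neural), and Ptbp1 in the latter at -0.13. The causes were not tested.

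Leaving out 1 array gave 4 to 7 member calls for neural against pluripotent, 5 to 7 for fibroblast against pluripotent, 2 to 4 for fibroblast-derived against pluripotent, 2 to 6 against neural, 2 to 5 against fibroblast, 0 for adult-derived against embryonic-derived and 0 to 1 for secondary against primary. The number of all genes called varied over these fits too. With a common median, 1 member was called for fibroblast-derived against fibroblast and 2 for secondary against primary. That last count was 2 with the mean of probe sets and 1 each with quantile normalization, 20 added, a floor of 100 and the replicate block (Smarcc1, adjusted p = 0.0487). The block also took Dpf1 past the threshold for fibroblast-derived against fibroblast (adjusted p 0.0447, from 0.0522, with the fibroblast signal under the floor) and changed no other member call. The common median moved the median of all genes from 0.14 to -0.19 for neural against pluripotent, from 0.16 to -0.19 for fibroblast-derived against pluripotent, from 0.22 to -0.20 for fibroblast-derived against fibroblast and from -0.01 to -0.31 for secondary against primary. The share of calls that were higher went from 57.7% to 41.0%, from 67.6% to 38.6%, from 64.7% to 35.1% and from 71.6% to 29.1% in these. Quantile normalization moved the median of all genes to -0.03 for neural against pluripotent, -0.01 for fibroblast-derived against pluripotent and 0.07 for fibroblast-derived against fibroblast. With the common median Smarcd1 (-0.92), Smarca4 (-0.66) and Phf10 (-0.75) passed for fibroblast-derived against pluripotent, beside that shift of all genes. Over all genes, the calls for secondary against primary went from 380 to 735 with the common median, 190 with 1 added, 604 with 20 added and 648 with the block. Those for adult-derived against embryonic-derived went from 64 to 42 with quantile normalization, 41 with the common median, 10 with 1 added, 139 with 20 added, 10 with a floor of 100 and 29 with the block.

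The ratios changed size more than sign. Smarca4 over Smarca2, in the order neural, fibroblast and fibroblast-derived against pluripotent, was -5.96, -6.88 and -7.26 with 1 added, -3.34, -4.21 and -4.56 with 20 added, -3.81, -4.68 and -5.33 with the mean of probe sets and -2.87, -3.70 and -4.62 with the second. Leaving out 1 array gave -5.39 to -4.10, -6.30 to -5.01 and -6.68 to -5.39. Smarcc1 over Smarcc2 in the same order was -2.91, -2.82 and -1.13 with quantile normalization, and -3.05 and -2.85 for the first pair of these with 20 added. Smarcd1 over Smarcd3 with 20 added was -1.45 for fibroblast against pluripotent and 1.64 for fibroblast-derived against neural. Its range on leaving out 1 array was -1.92 to -1.06 for neural, -2.33 to -1.47 for fibroblast and 0.067 to 0.92 for fibroblast-derived against pluripotent. Phf10 over Dpf1 with the mean of probe sets was -0.59 for neural and 0.59 for fibroblast against pluripotent and 0.42 for fibroblast-derived against neural. Without the primary neurospheres, the 3 other ratios were -5.49, -3.77 and -2.15 for neural against pluripotent and -0.54, 2.01 and 2.64 for fibroblast-derived against neural. Dim signals limit Smarca2 in pluripotent cells, Dpf1 in fibroblasts and Actl6b throughout.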
